A study of Mus musculus with 12 samples.

Results

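The genes described here encode the proteasome, its regulators and its assembly factors, measured by RNA sequencing of mouse striatum. They were chosen by name, as every gene of the count table whose symbol opens with Psm, a letter from a to g and a digit. That rule found 50 of 24421 genes, and the 47 with at least 10 counts in 6 or more libraries were tested. All 12 libraries came from inbred C57BL/6J males, naive at the start, that drank 20% ethanol in Drinking-in-the-Dark, a limited-access test. The varenicline group (6 libraries) was injected with 2 mg/kg varenicline, a partial agonist of nicotinic acetylcholine receptors used to help people stop smoking. The saline group (6 libraries) was injected with saline on the same schedule. Ethanol was offered for 2 h from 3 h into the dark phase, in 3 cycles of 2 days, and both groups had a saline injection before drinking in the first cycle, after which they were matched for mean intake. In the other 2 cycles the assigned injection came 30 min before the session on the second day, and bilateral striatum was taken after the last session. The sources used here give neither the age of the mice nor whether a library holds 1 mouse, so the p-values reflect only the spread among these libraries, which may be technical. The comparison asks which striatal transcripts differ with the drug when all mice drink. Intake in the treated cycles is not given here, so the drug and any difference in intake cannot be told apart.

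The proteasome is the protease that degrades proteins tagged with ubiquitin. Its 20S core is a barrel of alpha and beta rings, with proteolytic sites in the beta subunits Psmb5, Psmb6 and Psmb7. The 19S particle caps the barrel, binds ubiquitin chains and unfolds substrates with a ring of ATPases. Cytokines such as interferon gamma induce the alternative catalytic subunits Psmb8, Psmb9 and Psmb10, which replace the constitutive ones in the immunoproteasome, and the activator subunits Psme1 and Psme2. In neurons the proteasome takes part in the turnover of synaptic proteins.

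Library totals ran from 13340420 to 24522349 counts with varenicline and from 14040416 to 27917715 with saline. Markers of cortical excitatory neurons moved with the groups. All 12 of them had negative log2 fold changes, 11 at an unadjusted p under 0.05, and their summed level ran from 422 to 1599 CPM (counts scaled to a common library size) with varenicline and from 1145 to 1866 CPM with saline. The cortical score, the mean log2 CPM of these 12 genes, ran from 3.39 to 5.98 with varenicline and from 5.47 to 6.15 with saline. The highest varenicline score, that of library 6, lay inside the saline range. The other varenicline scores, at most 5.05, lay below every saline score. The 9 microglia markers, of the brain's resident immune cells, had 6 positive and 3 negative log2 fold changes, 0 at an unadjusted p under 0.05. Their summed level ran from 573 to 699 CPM with varenicline and from 594 to 660 CPM with saline, and no marker was at 0 throughout in either list. All 11 striatal projection neuron markers had positive log2 fold changes, 4 at an unadjusted p under 0.05, with a median of 0.21 and summed levels of 7973 to 12853 CPM with varenicline and 7351 to 11764 CPM with saline. The markers of septum and pallidum (8 of 8 positive, 7 at that p), oligodendrocytes (8 of 8, 4), astrocytes (7 of 7, 2) and choroid plexus (5 of 5, 0) had positive values too. The 6 endothelium markers had 3 positive and 3 negative values, 1 of them, a positive one, at that p. The septum and pallidum sum was 124 CPM in varenicline 1 and 118 CPM in varenicline 3. In the other varenicline libraries it ran from 44.1 to 52.9 CPM, against 35.7 to 57.3 CPM with saline. The choroid plexus sum ran from 92.4 to 1914 CPM with varenicline and from 80.7 to 1654 CPM with saline. The part of tissue composition in the differences below was not tested beyond the fit with the cortical score. Because score and group largely coincide, that fit cannot tell the drug from tissue composition. All 4 globin genes among the blood markers were listed at 0 in all 12 libraries. Alas2, the 1 blood marker tested, had a log2 fold change of 0.37, at an unadjusted p under 0.05.

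Proteasome transcripts differed little between varenicline and saline. None of the 47 genes passed an adjusted p of 0.05 in edgeR's quasi-likelihood test with Benjamini-Hochberg adjustment over all 15111 genes tested, where the share called among all genes was 0.0%. At an unadjusted p under 0.05 there were 6 of the 47, or 12.8%, against 16.9% of all genes tested. Of these 6, Psmg2 was higher (7.27% of all genes were higher at that p) and Psmb10, Psmc3, Psmd8, Psme1 and Psmc4 were lower (9.64% of all genes). The median log2 fold change, varenicline minus saline, was -0.029 over the 47 genes and 0.0074 over all genes tested. The groups overlapped for every one of the 47 genes, and 0.754% of all genes had groups that did not overlap. DESeq2 called Psmb10 (2.69% of all genes called), and limma-voom with sample weights called Psmb10, Psmc3 and Psmd8 (13.9% of all genes called). The same 3 were called by edgeR without the library varenicline 6 (10.8% of all genes called). Adjusted for the cortical score, edgeR called 0 (0.0794% of all genes called), and 1 of the 47, Psmg2, had an unadjusted p under 0.05 (4.96% of all genes).

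The summed level of the 46 proteasome genes, leaving out Psmc3ip, which is matched by name only, varied little between libraries. It was lowest at 2890 CPM, with a median of 2942 CPM and a highest value of 3045 CPM, with varenicline. With saline it was lowest at 2887 CPM, with a median of 3040 CPM and a highest value of 3139 CPM. The log2 ratio of the group means was -0.030, and the groups overlapped over most of their range.

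**Figure D1:**
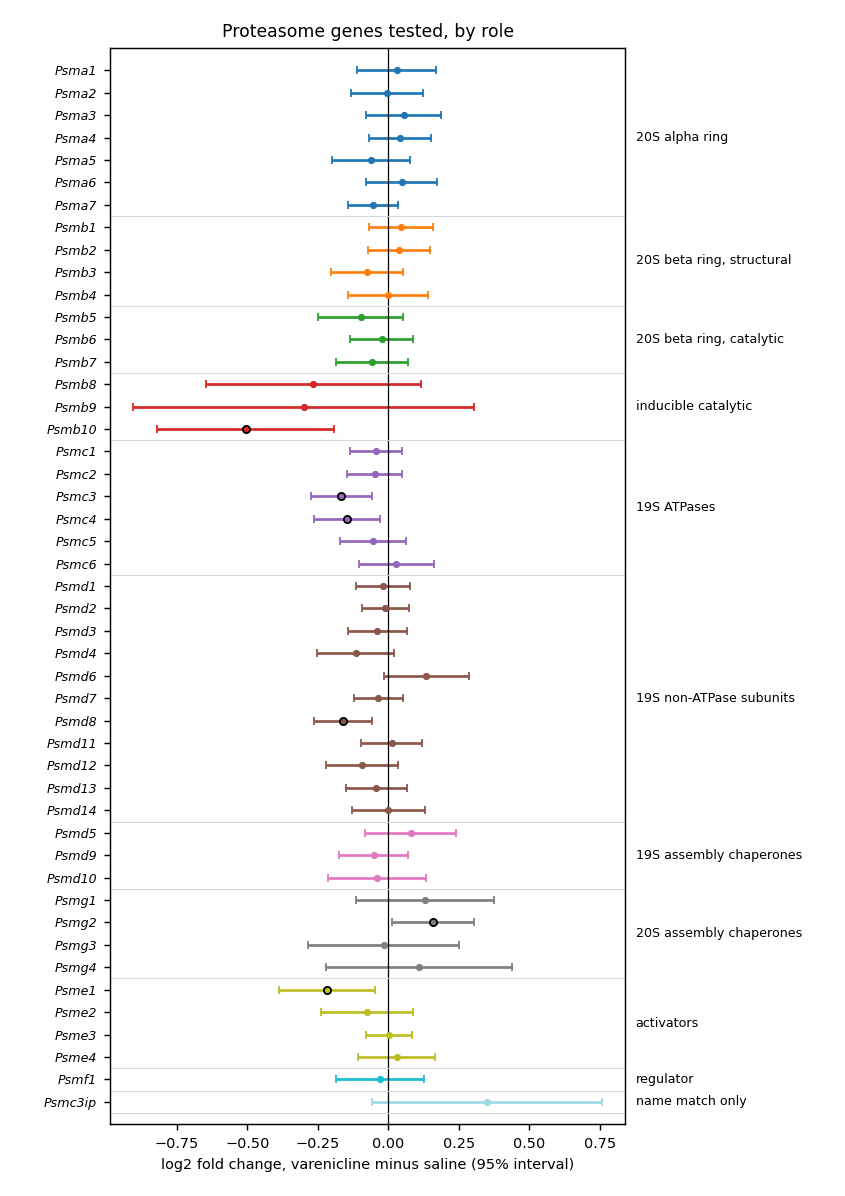
Log2 fold change of the 47 genes tested, varenicline minus saline, on the horizontal axis, with 95% intervals as bars and the genes grouped by role; black rings mark an unadjusted p under 0.05. Most points sit near 0, and the farthest to the left is Psmb10 at -0.51.

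The constitutive subunits of the 20S core and of the 19S particle were measured closely enough to bound their differences between these groups of libraries. The intervals come from the fit without the cortical score and do not bound an effect of the drug itself. All 31 had a 95% interval of the log2 fold change within 0.32 of 0 on either side, a bound chosen after the values were seen. The half-widths of those intervals ran from 0.083 to 0.15, with a median of 0.12. Over all 47 genes 40 lay within that bound. The 7 that did not were Psmb8, Psmb9, Psmb10, Psme1, Psmg1, Psmg4 and Psmc3ip.

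Levels per length, in RPKM (CPM divided by the exon length in kilobases, as the mean of all 12 libraries), differed between roles. The 14 constitutive subunits of the 20S core lay between 40.8 RPKM for Psma7 and 93.8 RPKM for Psmb4 and Psmb1. The 17 subunits of the 19S particle lay between 28.4 RPKM for Psmd11 and 106 RPKM for Psmc5. Assembly chaperones were lower, from 7.90 RPKM for Psmg4 to 18.1 RPKM for Psmd5. The inducible catalytic subunits Psmb9 and Psmb8 were the lowest of the 46, at 1.27 and 2.03 RPKM, and Psmb10, at 9.85 RPKM, lay among the chaperones. The activators ran from 13.8 RPKM for Psme4 to 39.2 RPKM for Psme3.

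**Figure D2:**
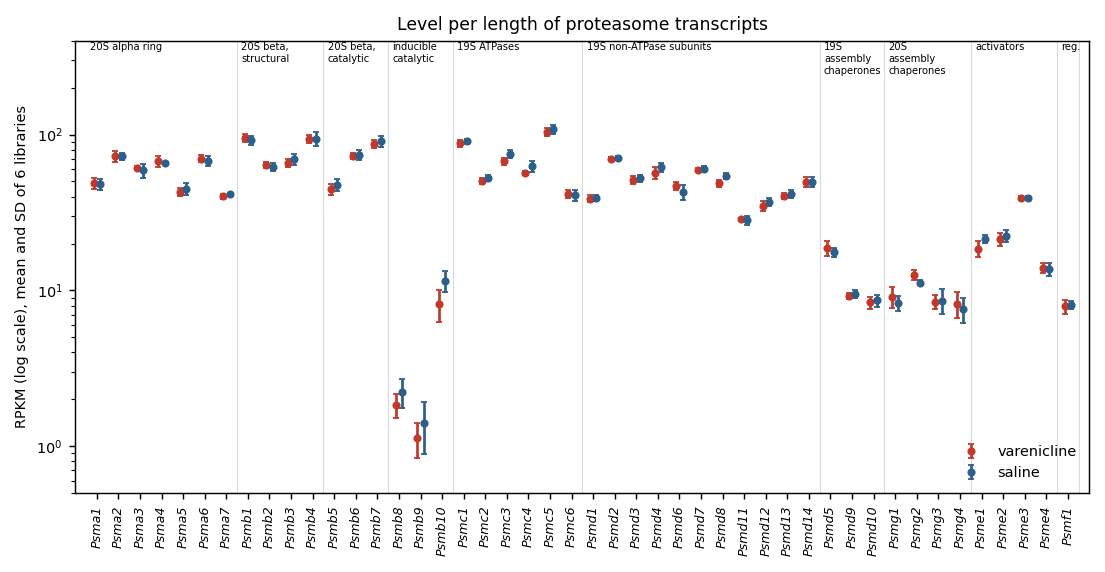
Level of 46 genes in RPKM on a log axis, mean and SD of 6 varenicline libraries (red, left of each pair) and 6 saline libraries (blue), grouped by role. Core and 19S subunits lie together between 28.4 and 106 RPKM, and Psmb8, Psmb9 and Psmb10 lie below them.

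Within the 20S core, the 7 tested alpha subunits, which form the outer rings and gate the barrel, had 4 positive and 3 negative log2 fold changes, from -0.062 for Psma5 to 0.054 for Psma3. Without saline 6 the log2 fold change of Psma3 was 0.0051 and that of Psma6, otherwise 0.048, was 0.011. Psma3 averaged 87.0 ± 1.96 CPM with varenicline and 83.8 ± 8.56 CPM with saline (SD, n = 6 each). Psma6 averaged 70.0 ± 3.97 CPM with varenicline and 67.7 ± 5.34 CPM with saline. Psma2 had the highest level per length of its ring, at 72.4 RPKM with varenicline and 72.6 RPKM with saline. The 4 structural beta subunits ran from -0.075 for Psmb3 to 0.044 for Psmb1, which was 0.012 without saline 6. Psmb4 averaged 89.1 ± 5.12 CPM with varenicline and 89.0 ± 9.02 CPM with saline. None of these 11 genes had an unadjusted p under 0.05.

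The 3 constitutive catalytic subunits had small negative log2 fold changes, none at an unadjusted p under 0.05. Psmb5, which carries the chymotrypsin-like site, had -0.098 (95% interval -0.25 to 0.053). Its level was 35.9, 37.8 and 44.0 CPM as lowest, median and highest with varenicline, against 34.2, 42.4 and 44.8 CPM with saline, and the lowest value of all was that of saline 6. Psmb6, which carries the caspase-like site, had -0.024 and Psmb7, which carries the trypsin-like site, had -0.056. Psmb5 shares 109 exon bases with the microRNA gene Mir686 on the same strand, and how reads in the shared bases were counted is not known here.

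All 3 inducible catalytic subunits were lower on average with varenicline, and Psmb10 differed most. Psmb10 (ENSMUSG00000031897, chromosome 8, 105935728 to 105938392 on mm10), the inducible counterpart of Psmb7, had 6.48, 10.5 and 13.7 CPM as lowest, median and highest with varenicline. With saline these were 11.8, 14.6 and 18.1 CPM. Each of the 6 varenicline libraries lay below the saline mean, and varenicline 6, the highest, lay above the saline libraries 3 and 4. This gave a log2 fold change of -0.51 (SE 0.15, 95% interval -0.82 to -0.19), with an adjusted p of 0.147 in edgeR. By DESeq2 the adjusted p was 0.0401, by limma-voom 0.0114, and by edgeR without varenicline 6 it was 0.0128. Over all alternatives it ran from 0.0114 to 0.998.

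The level of Psmb10 moved with the cortical markers from library to library. Among the varenicline libraries, both Psmb10 and the cortical score were lowest in library 3, at 6.48 CPM and 3.39, and both were highest in library 6, at 13.7 CPM and 5.98. The 6 libraries had the same order by both measures. Among the saline libraries, both were highest in saline 1, at 18.1 CPM and 6.15, whereas saline 6 had 16.3 CPM at the lowest saline score, 5.47. Adjusted for the score, the log2 fold change of Psmb10 was -0.088 (edgeR unadjusted p = 0.524, adjusted p = 0.998). In that fit AI314180, at an edgeR unadjusted p of 0.025, had the same adjusted p. Score and group largely coincide, so the fit cannot tell the drug from tissue composition. In bulk tissue, fewer cells of a type and less RNA per cell cannot be told apart.

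**Figure D3:**
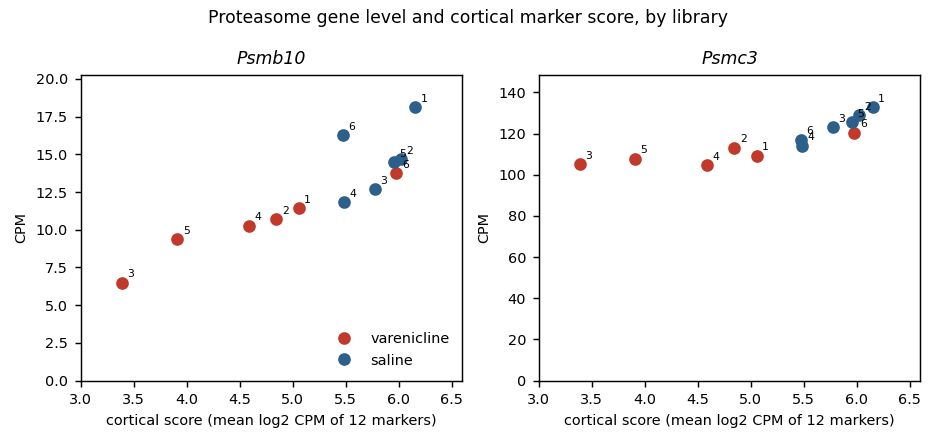
Level of Psmb10 and of Psmc3 in CPM against the cortical score (mean log2 CPM of 12 markers), 1 point per library, numbered by replicate, varenicline in red and saline in blue. For Psmb10 the points run from varenicline 3, at 6.48 CPM and a score of 3.39, up to saline 1, at 18.1 CPM and 6.15.

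Psmb8 and Psmb9, the inducible counterparts of Psmb5 and Psmb6, lie close together in the class II region of the major histocompatibility complex, 10864 bases apart on mouse chromosome 17. Psmb9 lies 225 bases from Tap1, a peptide transporter gene, and the pair are transcribed away from each other. Psmb8 (ENSMUSG00000024338, 34198195 to 34201454) averaged 2.25 ± 0.390 CPM with varenicline and 2.72 ± 0.574 CPM with saline, a log2 fold change of -0.27 (95% interval -0.65 to 0.12). Psmb9 (ENSMUSG00000096727, 34182099 to 34187330) averaged 0.910 ± 0.229 CPM with varenicline and 1.14 ± 0.420 CPM with saline, a log2 fold change of -0.30 (95% interval -0.90 to 0.30). That of Psmb9 was -0.45 without saline 3, -0.20 without varenicline 1 and -0.13 without saline 5. With between 7 and 42 counts of Psmb9 and between 21 and 87 of Psmb8 per library, the interval of each gene held both 0 and the value of Psmb10.

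Set against its constitutive counterpart per length, each inducible subunit was a small part of the pair. Psmb10 was 9.40 ± 2.43% of Psmb7 with varenicline and 12.8 ± 2.35% with saline (SD, n = 6 each). Psmb8 was 4.19 ± 0.876% of Psmb5 with varenicline and 4.64 ± 0.765% with saline. Psmb9 was 1.55 ± 0.402% of Psmb6 with varenicline and 1.90 ± 0.690% with saline. The ranges of the groups overlapped for all 3 pairs.

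Promoters were searched in the 250 bases before the start site, with sequences from RefSeq on GRCm38.p6, which matched 42 of the 50 genes and 40 of the 47 tested. The motifs, read on both strands and chosen after matches had been seen, were the ETS core TTCCGG, the antioxidant response element core TGACNNNGC, the interferon gamma activated site core TTCNNNGAA, the interferon stimulated response element core (TTTC, 2 bases of any kind, TTTC) and the CCAAT box. The antioxidant element is the kind of site bound by Nfe2l1, the factor that raises proteasome gene transcription when proteasome activity falls. The ETS core was held by 18 of the 40 genes, or 45.0%, against 12.03% of all 32851 promoters and 19.4% of those of tested genes. The antioxidant core was held by 5 of 40 (12.5%), namely Psmb5, Psmb6, Psmc6, Psmd9 and Psmd12, against 10.2% of all promoters and 11.7% of those of tested genes. The interferon gamma core was held by 2 genes (5.0%, against 7.02% of all promoters and 5.89% of those of tested genes). The interferon stimulated core was held by 3 (7.5%, against 2.98% and 2.46%), and the CCAAT box by 14 (35.0%, against 33.8% and 34.7%). The 40 were counted per gene and the shares they are set against per promoter. None of the 5 motifs was found before Psmb10, Psmd8, Psme1 or Psmc4, which says only that these letters are not in those windows. Psmc3 and Psmg2 had no matching promoter sequence and could not be searched. The following 4 are shown for the gene that differed most, for a constitutive and an inducible catalytic subunit that share a position in the core, and for the subunit with the highest level. Capitals mark motif matches, an antioxidant core in Psmb5, an interferon gamma core in Psmb8 and an ETS core, read on the opposite strand, in Psmc5, and none of these matches overlaps another motif searched. The windows are chr8:105938393-105938642, minus strand, for Psmb10, chr14:54617996-54618245, minus strand, for Psmb5, chr17:34197945-34198194, plus strand, for Psmb8 and chr11:106255935-106256184, plus strand, for Psmc5.
Psmb10: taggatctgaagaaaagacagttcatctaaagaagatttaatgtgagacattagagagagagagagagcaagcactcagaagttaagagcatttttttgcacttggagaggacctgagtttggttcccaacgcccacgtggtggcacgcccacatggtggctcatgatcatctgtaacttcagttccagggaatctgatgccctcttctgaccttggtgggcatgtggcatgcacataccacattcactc
Psmb5: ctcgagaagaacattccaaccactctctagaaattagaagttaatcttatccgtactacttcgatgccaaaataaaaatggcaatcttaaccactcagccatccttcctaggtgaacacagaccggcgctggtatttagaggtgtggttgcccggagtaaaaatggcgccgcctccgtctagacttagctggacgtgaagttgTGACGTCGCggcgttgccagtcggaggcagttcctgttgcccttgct
Psmb8: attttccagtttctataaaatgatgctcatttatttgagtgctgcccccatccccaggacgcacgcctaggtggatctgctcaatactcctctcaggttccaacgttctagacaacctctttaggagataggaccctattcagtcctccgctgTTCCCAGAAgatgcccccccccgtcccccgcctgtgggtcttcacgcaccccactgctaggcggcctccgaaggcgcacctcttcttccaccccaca
Psmc5: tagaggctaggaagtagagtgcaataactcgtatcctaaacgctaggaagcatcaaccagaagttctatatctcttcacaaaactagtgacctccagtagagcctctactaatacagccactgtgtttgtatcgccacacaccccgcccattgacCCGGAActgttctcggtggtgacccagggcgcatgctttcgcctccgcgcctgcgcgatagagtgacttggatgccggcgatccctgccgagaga

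Of the 6 ATPases of the 19S particle, 5 had negative log2 fold changes. Of these, 2, or 33.3% of the 6, had an unadjusted p under 0.05. Among all genes 9.64% were lower at that p, and 16.9% passed it in either direction. Psmc3 (ENSMUSG00000002102, chromosome 2, 91054016 to 91059438) had 105, 109 and 121 CPM as lowest, median and highest with varenicline, against 114, 124 and 133 CPM with saline. All 6 varenicline libraries lay below the saline mean, and varenicline 6 alone lay above the lowest saline libraries. The log2 fold change of Psmc3 was -0.17 (SE 0.050, 95% interval -0.27 to -0.059), with an adjusted p of 0.147 in edgeR. Adjusted for the cortical score it was -0.061 (edgeR adjusted p = 0.998). Without varenicline 6 it was -0.18 (edgeR adjusted p = 0.0261), and over all alternatives the adjusted p ran from 0.0061 to 0.998.

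Psmc4 (ENSMUSG00000030603, chromosome 7, 28041702 to 28050092) had 77.5, 81.6 and 84.8 CPM as lowest, median and highest with varenicline, against 82.4, 86.7 and 101 CPM with saline. The highest saline values were those of saline 5 and saline 6, at 98.0 and 101 CPM, and varenicline 4, 5 and 6 lay above saline 4, the lowest. Psmc4 had a log2 fold change of -0.15 (SE 0.055), with an adjusted p of 0.207 in edgeR. It was -0.12 when adjusted for the cortical score and -0.11 without saline 6. Psmc5, the ATPase with the highest level per length, averaged 133 ± 7.58 CPM with varenicline and 138 ± 9.50 CPM with saline. The ATPases together summed to 588 to 629 CPM with varenicline and 615 to 672 CPM with saline, a log2 ratio of means of -0.076.

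Among the 11 other subunits of the 19S particle, 8 had negative and 3 positive log2 fold changes. At an unadjusted p under 0.05 there was 1 (9.09%), which was lower. Among all genes 9.64% were lower at that p, and 16.9% passed it in either direction. Psmd8 (ENSMUSG00000030591, chromosome 7, 29174187 to 29180673), a subunit of the lid, had 69.6, 73.0 and 80.9 CPM as lowest, median and highest with varenicline, against 76.7, 83.2 and 87.2 CPM with saline. All 6 varenicline libraries lay below the saline mean, and varenicline 6 was again the one that reached into the saline range. For Psmd8 the log2 fold change was -0.16 (SE 0.048), with an adjusted p of 0.147 in edgeR. It was -0.18 without varenicline 6 (edgeR adjusted p = 0.0214) and -0.077 when adjusted for the cortical score, with adjusted p from 0.0145 to 0.998 over all alternatives. Psmd4, a ubiquitin receptor, had -0.12 and Psmd12, of the lid, had -0.092, and that adjustment gave 0.050 for Psmd4 and 0.029 for Psmd12. Without varenicline 3 they were -0.068 and -0.046. Psmd6, also of the lid, had 0.14, with 61.0 ± 3.78 CPM with varenicline and 55.5 ± 5.93 CPM with saline. Its saline libraries included the lowest value, 45.6 CPM in saline 6, and the log2 fold change without that library was 0.087. Psmd2, the subunit that anchors ubiquitin receptors and shuttle factors, averaged 214 ± 3.41 CPM with varenicline and 216 ± 7.33 CPM with saline, a difference of -0.0099 (95% interval -0.093 to 0.073). Psmd14, the deubiquitinase of the lid, averaged 77.0 ± 5.72 CPM with varenicline and 76.9 ± 5.5 CPM with saline.

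**Figure D4:**
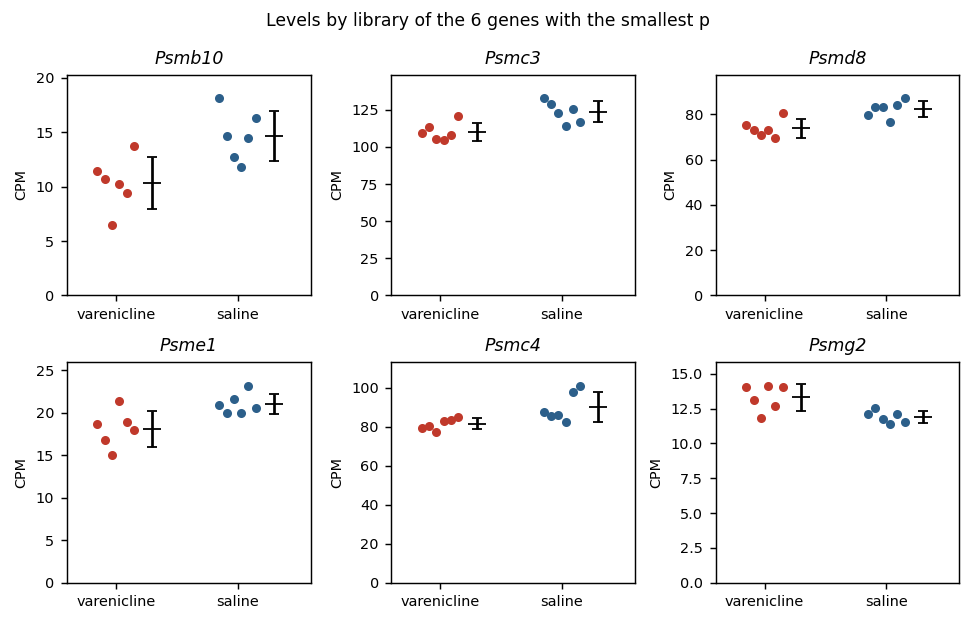
Level in CPM of the 6 genes with the smallest p, 1 point per library, varenicline on the left and saline on the right of each panel, with the mean and SD in black. In every panel the groups overlap, and the panel of Psmb10 shows values of 6.48 to 13.7 CPM with varenicline and 11.8 to 18.1 CPM with saline.

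The assembly chaperones had mixed values. Psmg2, which pairs with Psmg1 to start the alpha ring, had 11.8, 13.6 and 14.2 CPM as lowest, median and highest with varenicline, against 11.4, 11.9 and 12.5 CPM with saline. Of the varenicline libraries 5 lay above the saline mean and varenicline 3 lay below it. The log2 fold change of Psmg2 was 0.16 (SE 0.069, 95% interval 0.014 to 0.31), with an adjusted p of 0.256 in edgeR, and 0.28 when adjusted for the cortical score (edgeR adjusted p = 0.808). Over all alternatives the adjusted p of Psmg2 ran from 0.128 to 0.808. Its partner Psmg1 had 0.13 (95% interval -0.11 to 0.37), with 9.0 ± 1.40 CPM with varenicline and 8.20 ± 0.901 CPM with saline. The value of Psmg1 was 0.075 without varenicline 1 and 0.21 without varenicline 3. Psmg3 and Psmg4, the second chaperone pair, had -0.015 and 0.11. Of the 19S chaperones, Psmd5 had 0.079, Psmd9 -0.051 and Psmd10, also known as gankyrin, -0.039, none at an unadjusted p under 0.05.

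Among the activators, Psme1 was the gene with an unadjusted p under 0.05. Psme1 (ENSMUSG00000022216, chromosome 14, 55578494 to 55581527), an inducible subunit of the 11S activator, had 15.1, 18.3 and 21.4 CPM as lowest, median and highest with varenicline, against 20.0, 20.8 and 23.2 CPM with saline. Varenicline 4 lay above the saline mean and the other 5 below it. Psme1 had a log2 fold change of -0.22 (SE 0.080), with an adjusted p of 0.197 in edgeR, and -0.14 when adjusted for the cortical score. Psme1 shares 4 exon bases with Emc9 on the opposite strand, and the sources used here do not say whether counting used strand. Psme2, its partner in the same activator and 5912 bases away, had -0.075 (95% interval -0.24 to 0.088), with 20.7 ± 1.94 CPM with varenicline and 21.9 ± 1.84 CPM with saline. Reads of Psme2 could also be assigned to its near copy Psme2b.

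The nuclear activator Psme3 had 0.0038 and Psme4, a large activator of a single chain, had 0.030. Psme3 averaged 103 ± 2.54 CPM with varenicline and 102 ± 2.93 CPM with saline. Psmf1, a regulator that binds the 20S core, had -0.029, with its lowest value, 22.7 CPM, in varenicline 1.

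Variation between libraries was in places larger than the difference between treatments, and saline 6 was the library at the bottom most often. Of the 46 proteasome genes, 14 (30.4%) had their lowest value of the 12 libraries in saline 6, where 17.3% of all genes tested had theirs. Among the 14 constitutive core genes these numbered 8, namely Psma1, Psma3, Psma5, Psma6, Psmb1, Psmb4, Psmb5 and Psmb7, and among the 17 genes of the 19S particle 4. At the other end, 12 of the 46 (26.1%) had their highest value in saline 2, against 4.71% of all genes. Saline 6 was not low throughout, since Psmc4, Psmd8 and Psmb6 had their highest values there. The median log2 fold change of the tested genes was -0.035 without saline 6.

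**Figure D5:**
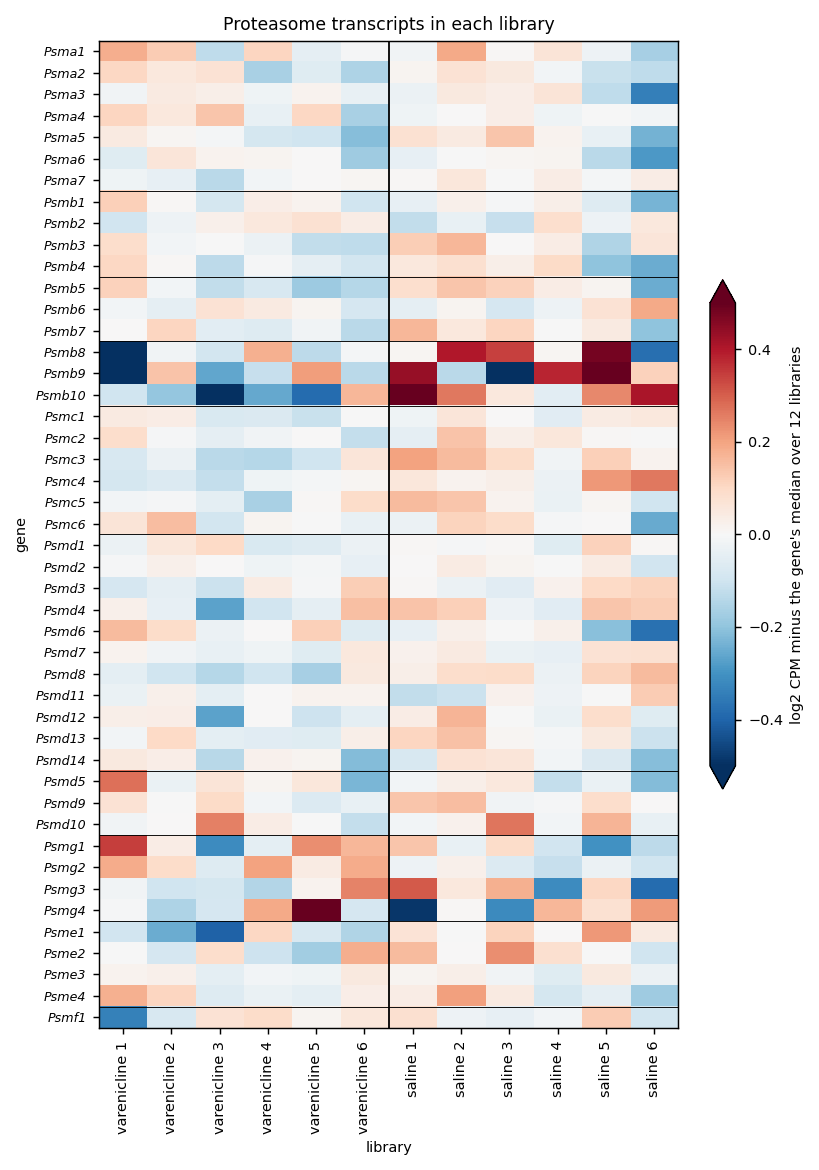
Log2 CPM of 46 genes (rows, ordered by role) minus each gene's median over the 12 libraries (columns, varenicline left of saline), with colours saturating at 0.5 on either side. Blue cells gather in saline 6 for the core genes, 8 of 14 of which were lowest there, and Psmb10 is blue in varenicline 1 to 5.

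Other genes of the pathway showed no called difference in edgeR on all 12 libraries either. Of 43 genes, 0 were called by edgeR or DESeq2 on those libraries. At an unadjusted p under 0.05 edgeR gave 2 higher and 1 lower, or 6.98%, against 16.9% of all genes, and the median log2 fold change was -0.027. Limma-voom with sample weights called 2, Nfe2l1 and Nfe2l2 (13.9% of all genes called), and edgeR without varenicline 6 called Nfe2l1 (10.8% of all genes called). DESeq2 called 2.69% of all genes. Nfe2l1, which drives transcription of proteasome subunits, averaged 328 ± 25.4 CPM with varenicline and 359 ± 12.1 CPM with saline, a log2 fold change of -0.13 (SE 0.053), with an adjusted p of 0.242 in edgeR. The value was -0.0054 when adjusted for the cortical score and -0.16 without varenicline 6 (edgeR adjusted p = 0.0412), and the adjusted p ran from 0.0336 to 0.998 over all alternatives. Nfe2l2, a related factor of the oxidative stress response, averaged 25.5 ± 2.51 CPM with varenicline and 21.7 ± 3.43 CPM with saline, a log2 fold change of 0.23 (SE 0.099, edgeR adjusted p = 0.260). Adjusted for the cortical score, Nfe2l2 had 0.14, with an unadjusted p of 0.315.

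Of 8 tested assembly factors and subunits that carry other names, 1 (12.5%) had an unadjusted p under 0.05, against 16.9% of all genes. It was AI314180, the older symbol of the gene for the scaffold protein Ecm29, with a log2 fold change of 0.14 (SE 0.065, edgeR adjusted p = 0.286), and 0.22 when adjusted for the cortical score. Of 19 ubiquitin and shuttle genes 0 had such a p, against the same 16.9%, with 0.097 for Rps27a, which encodes a ubiquitin fused to a ribosomal protein, and -0.075 for Vcp, the segregase upstream of the proteasome. Of 10 partners in class I antigen processing 0 had such a p either, and their log2 fold changes ran from -0.20 to 0.28. The 6 genes of transcriptional control had 5 positive and 1 negative values. Of these 6, 2 (33.3%, against 16.9% of all genes) had such a p, Nfe2l2 higher and Nfe2l1 lower.

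Of the 50 genes, 3 were too low to test. Psma8, a testis form of an alpha subunit, had 78 counts over all 12 libraries, Psmb11, the thymus form of a catalytic subunit, had 43, and Psme2b had 70. Psmc3ip, which the rule finds by name, encodes a meiotic recombination factor and no proteasome subunit. It averaged 3.44 ± 0.755 CPM with varenicline and 2.67 ± 0.634 CPM with saline, a log2 fold change of 0.35 (95% interval -0.059 to 0.76) that was 0.10 when adjusted for the cortical score, and it shares 67 exon bases with Mlx on the opposite strand. Psma4 likewise shares 45 exon bases with AY074887 on the opposite strand.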

How the data were processed

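RNA of bilateral striatum was sequenced in 6 varenicline and 6 saline libraries as single reads of 150 nt from Illumina TruSeq RNA libraries, per the labels' protocols. Reads were handled with featureCounts, TopHat2, Trimmomatic, FastQC, Cuffnorm, Cuffdiff and DESeq2 on mm10, per the submitters' processing notes. Their versions, the annotation and any use of strand were not given in the sources used here. Deposited gene counts are whole numbers and not normalized. The authors' deposited FPKM values were used as an alternative, and the exon length came from the count table, per the file headers. Library sizes were TMM-scaled and genes tested with edgeR 4.0.16 (quasi-likelihood F test, R 4.3.3), Benjamini-Hochberg adjusted over all genes with at least 10 counts in 6 or more libraries, at 0.05. Fold changes are log2. Their standard errors are approximate, the size of the fold change divided by the square root of the F statistic, and the 95% intervals were built from them. CPM and RPKM were computed from the counts on TMM-scaled library sizes. At these totals 3 counts are 0.107 to 0.225 CPM, which covers counting error only.

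Alternatives were other size factors and filters, DESeq2 1.42.0, limma 3.58.1 (limma-voom with sample weights, and FPKM with pseudocounts of 1 and 0.1), the cortical score as a covariate, a correction for gene length within libraries, and leaving out 1 library at a time. The statistics were run on simulated counts with the same dispersion for every gene and no shift in tissue composition. That run therefore does not show how they behave on these libraries. The genes, lists and tests were chosen with earlier results of these data known. Named are the catalytic subunits and Psme1 and Psme2, the 8 genes per direction with the smallest p, the highest per length in each role, and 3 other pathway genes per direction, of which 1 is not reported here. Other genes named were chosen after their values were seen. Figures were drawn with matplotlib 3.10.9.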

Additional observations from a re-analysis of the deposited data

Results flagged for a closer look

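Within each group of 6 libraries, 88 sets of values (log2 CPM of a gene, or summed CPM of a role) were examined for a library far from the rest, and 4 had one, where about 4.4 are expected by chance. Saline 6 was that library for Psmb1, Psmb5 and Psmd2. There the log2 CPM of Psmb1 was 6.39, against 6.56 to 6.65 in the other saline libraries. That of Psmb5 was 5.10, against 5.36 to 5.48, and that of Psmd2 was 7.66, against 7.75 to 7.79. Psmc3ip, matched by name only, had a log2 CPM of 1.04 in varenicline 6, against 1.72 to 2.10 in the other varenicline libraries.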

How the results depend on the processing

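No paired analysis was possible because every library title gives replicate 1 and the numbers used here follow accession order. Of 47 proteasome genes, the number called was 1 by DESeq2 (Psmb10), 3 by limma-voom with sample weights (Psmc3, Psmd8 and Psmb10), and 0 to 3 with 1 library left out, 3 without varenicline 6 and 0 without any other. At an unadjusted p under 0.05, limma-voom gave 2 higher and 8 lower. Limma-voom called 13.9% of all genes at an adjusted p under 0.05, and its share at the unadjusted p is not given here. Adjustment for the cortical score gave 1 higher and 0 lower, where 4.96% of all genes had such a p in either direction. With 1 library left out there were 0 to 2 higher (0 without varenicline 1 or 4) and 3 to 6 lower (3 without saline 5). The shares of all genes at the unadjusted p in those fits are not given here. The limma-voom and leave-one-out counts are therefore not read as a result about the proteasome genes. Of the other pathway genes limma-voom called 2, and 0 to 1 were called with 1 library left out. The median log2 fold change of the 47 genes stayed between -0.035 and -0.015 with 1 library left out. Single genes whose direction turned are as follows, and the cause was not tested. Psma2 was 0.0023 with upper quartile size factors, 0.0048 with FPKM and either pseudocount, 0.012 after correction for gene length and -0.030 to 0.030 with 1 library left out. By limma-voom Psmb4 was -0.032, Psmb6 0.021 and Psme3 -0.0070. Leaving out 1 library gave -0.039 to 0.032 for Psmb4, -0.036 to 0.015 for Psmb6, -0.0012 to 0.022 for Psme3, -0.026 to 0.0062 for Psmd2 and -0.046 to 0.023 for Psmf1. Adjusted for the cortical score, Psma6 was -0.0097, Psmc5 0.027, Psmd12 0.029 and Psmd4 0.050, against -0.092 and -0.12 without adjustment. Depth was low for Psmb8 and Psmb9, with at most 87 and 42 counts in a library.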
